A study of Mus musculus with 16 samples.

Results

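Whether the MEK inhibitor PD0325901 acts on the same transcripts in wild-type germ cells and in germ cells that lack Spry4 was examined as a difference of differences. For each gene the response to the inhibitor in wild type (inhibitor minus vehicle) was subtracted from the response in the knockout, and the result is called the interaction below. A positive interaction means that the inhibitor response was higher in the knockout than in wild type. All 16 libraries of the series enter it (16 of 16), in 4 groups of 4. The cells were undifferentiated spermatogonia sorted by flow cytometry from adult mice, all of which had received busulfan at 10 mg/kg. From day 3 the mice were injected daily on 7 days with PD0325901 at 2.5 mg/kg or with vehicle (10% DMSO), and cells were taken on day 10. The groups were wild type with vehicle (WT_vehicle), wild type with PD0325901 (WT_PD), Spry4 germline knockout with vehicle (KO_vehicle) and Spry4 germline knockout with PD0325901 (KO_PD). There was no group without busulfan, so every value is from cells after damage. In the column names the wild-type libraries carry Spry4ff and the knockout libraries GCRT and Spry4KO. What GCRT stands for is not stated, and its effect and that of the deletion cannot be told apart. The driver of the deletion, the part of Spry4 removed, the sort markers and the number of mice behind a library are not stated in the labels. The p-values therefore measure the spread between these libraries, which may be partly technical.

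SPRY4 belongs to the Sprouty proteins, which are made in response to growth factor signals and then dampen them. Growth factors such as GDNF and FGF bind receptors on spermatogonia, RAS and RAF activate the kinases MEK1 and MEK2, these activate ERK, and ERK switches on transcription factor genes and also Sprouty, Spred and Dusp genes that damp the cascade. GDNF signalling maintains the stem cells among the undifferentiated spermatogonia. PD0325901 blocks MEK and so removes ERK activity downstream of the step where Sprouty proteins act.

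The libraries held germ cell transcripts at high levels. Levels are FPKM, fragments per kilobase of exon scaled to library size, so they can be compared between genes. Zbtb16, a transcription factor of undifferentiated spermatogonia, lay between 85.6 and 125 FPKM, Sall4 between 50.6 and 82.9, and the differentiation receptor Kit between 1.46 and 4.50. Transcripts of contractile peritubular cells were also abundant and uneven, with Acta2, smooth muscle actin, at 367 to 5095 FPKM. KO_vehicle 3 stood apart in spermatid transcripts, with a summed spermatid marker level of 3052 FPKM, against 11.3 to 149 FPKM over the 3 groups without it. The libraries carry numbers from 440 to 455 in their column names. Replicates 1 and 2 of each group fall in 440 to 447 and replicates 3 and 4 in 448 to 455, and what the numbers mark is not stated.

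Spry4, the targeted gene, was at 22.6, 23.8, 21.9 and 19.9 FPKM in WT_vehicle and at 15.9, 19.6, 27.4 and 23.0 in WT_PD. In the knockout it was at 11.97, 10.1, 7.28 and 14.7 FPKM with vehicle and at 13.0, 8.23, 10.97 and 19.3 with PD0325901. Transcript of this gene remained in every knockout library, and the inhibitor libraries overlapped the vehicle libraries in both genotypes. The log2 response was -0.06 in wild type and 0.19 in the knockout, an interaction of 0.26 (SE 0.34, 95% interval -0.47 to 0.98).

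No gene passed the threshold for the interaction. In limma's fit 0 of 12907 genes (0%) had an adjusted p under 0.05, and the smallest adjusted p was 0.999. An unadjusted p under 0.05 was given to 1.71% of the genes, 72 with a positive interaction (0.558%) and 149 with a negative one (1.15%), where 645 genes would be given one if all p-values were evenly spread. The same test on reads recovered from the FPKM values (limma voom) also called 0 of 12467 genes and gave 1.71% of them an unadjusted p under 0.05. Neither response alone held a called gene either (0% in each genotype), with 115 unadjusted p-values under 0.05 in wild type and 382 in the knockout. The differences described below are thus sizes with their errors, and none of them is a called change.

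The size of difference that 16 libraries can show was moderate. The median standard error of the interaction was 0.21 on the log2(FPKM + 0.5) scale, against 0.15 for the response within 1 genotype. The 95% interval lay within 1 log2 unit of 0 on both sides for 10261 genes (79.5%), so for these a larger interaction lies outside the interval. It lay within 1.5-fold for 6587 genes (51.0%). The estimates themselves had a median of -0.01, 90% of them between -0.38 and 0.49, and 205 genes had an estimate beyond 1 log2 unit.

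The 2 responses leaned in opposite directions across genes, as the plot of one against the other shows. They share no library. Pearson's r between them was -0.30 and Spearman's rho -0.17 over the 12907 genes, which vary together within a library and are not independent replicates. Opposite signs were found for 7088 genes (54.9%). The median size of a response was 0.06 in wild type and 0.10 in the knockout.

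**Figure D1:**
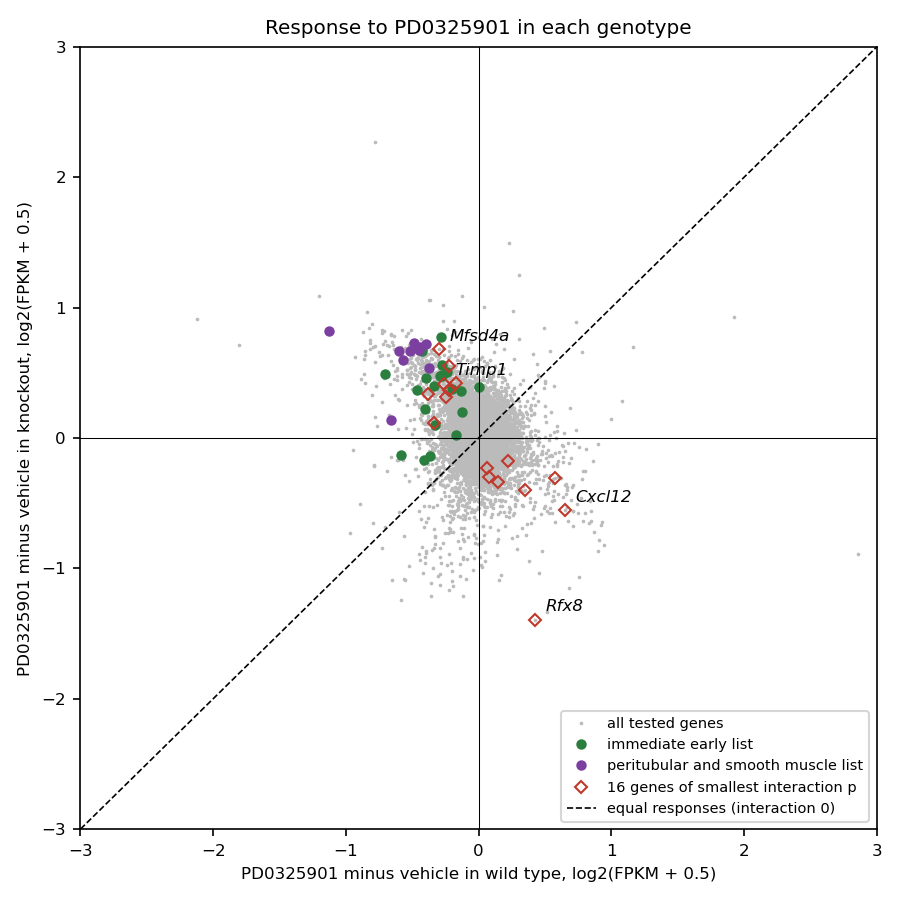
Log2 response to PD0325901 in wild type (horizontal) and in the knockout (vertical), 1 point per gene, for 12906 of the 12907 genes tested (1 lies outside the range). The dashed diagonal is an interaction of 0. Of the 21 immediate early genes 18 lie in the upper left, with all 10 peritubular markers, where wild type was lower and the knockout higher with inhibitor, and Rfx8 lies at the lower right.

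The genes that ERK drives most directly were examined first. Etv4 and Etv5 encode ETS transcription factors of the PEA3 family that are induced by ERK, and Etv5 is needed for stem cell maintenance. Etv4 (chromosome 11, 101769742 to 101785371, GRCm38) was at 22.2, 22.4, 29.4 and 28.2 FPKM in WT_vehicle and at 23.4, 25.9, 19.4 and 23.0 in WT_PD. It was at 19.2, 22.8, 24.2 and 25.3 FPKM in KO_vehicle and at 23.3, 35.1, 31.7 and 32.9 in KO_PD. KO_PD replicates 2 to 4 lay above every other library of the series, while KO_PD 1 lay among the vehicle libraries. The log2 response was -0.15 in wild type and 0.41 in the knockout, an interaction of 0.56 (SE 0.20, 95% interval 0.14 to 0.98, limma adjusted p = 0.999). It was 0.30 within library numbers 440 to 447 and 0.82 within 448 to 455.

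Etv5 did not share this pattern. Its values were 47.2, 37.3, 48.4 and 55.6 FPKM in WT_vehicle, 44.6, 48.5, 40.8 and 34.7 in WT_PD, 50.2, 55.0, 59.3 and 64.9 in KO_vehicle, and 48.9, 56.2, 46.4 and 53.1 in KO_PD. The response was -0.16 in both genotypes, and the interaction was -0.00 (SE 0.18, 95% interval -0.39 to 0.38). Dusp6, the ERK phosphatase that is induced by ERK itself, was at 38.7, 34.8, 43.4 and 52.4 FPKM in WT_vehicle and 37.7, 50.1, 40.3 and 30.3 in WT_PD. In the knockout it was at 51.3, 50.9, 51.0 and 51.3 FPKM with vehicle and 52.4, 49.7, 37.7 and 43.2 with inhibitor. The knockout vehicle libraries were nearly equal, and KO_PD 2 to 4 lay below them. The interaction was -0.07 (SE 0.21, 95% interval -0.52 to 0.38).

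Among the 19 tested genes of the ERK feedback and output list, 11 had a positive interaction, with a median of 0.02, beside 47% positive and a median of -0.01 over all genes tested. None was called, and Etv4 was the 1 member with an unadjusted p under 0.05. With inhibitor 10 of the 19 were lower in wild type (median response -0.06) and 7 of the 19 in the knockout (median response 0.04). The list as a whole thus had small responses in both genotypes. In the interaction, Dusp5 (0.40, SE 0.35) and Myc (0.43, SE 0.70) lay on the positive side. Phlda1 (-0.62, SE 0.38) and Etv1 (-0.39, SE 0.46) lay on the negative side, and Spry1 (-0.27, SE 0.42) and Spry2 (-0.12, SE 0.53), the other Sprouty genes tested, stood near 0 for their errors. The 29 genes from receptor to ERK were centred on 0 as well, with 13 positive and a median of -0.04. In that list only Rasa1, which encodes a GTPase activator that switches RAS off, had an unadjusted limma p under 0.05. Its response was 0.08 in wild type and -0.39 in the knockout (interaction -0.48, SE 0.21). Exons of Rasa1 overlap those of Ccnh on the opposite strand in the GENCODE M21 annotation, and whether strand was used in the counting is not stated.

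The receptor pair for GDNF gave like responses in both genotypes. Gfra1 had a response of -0.19 in wild type and -0.23 in the knockout (interaction -0.04, SE 0.23), and Ret one of -0.20 and -0.25 (interaction -0.05, SE 0.19). Their 95% intervals, -0.54 to 0.45 and -0.45 to 0.35, bound the difference between genotypes without showing that there is none.

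The 16 genes with the smallest interaction p, 8 in each direction, were next read library by library. Predicted genes and pseudogenes had been left out where their symbols mark them as such. Having been chosen for their interaction, the 16 genes show what such a pattern looks like and give no count in its favour. In all 16 the responses had opposite signs. Read the other way, in all 8 positive genes the knockout lay below wild type with vehicle (median log2 difference -0.31) and above it with inhibitor (0.37). In all 8 negative genes it lay above with vehicle (0.43) and below with inhibitor (-0.19). In 7 of 8 genes of each set KO_PD was nearer to WT_vehicle than KO_vehicle was. Over all genes tested it was 6842 of 12907. These signs, differences and counts use the group means on which the 16 genes were chosen. The choice itself favours them, and the comparison with all genes is no evidence. Of the 16 genes, 9 had a mean under 5 FPKM, where the added 0.5 shrinks a log2 difference.

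**Figure D2:**
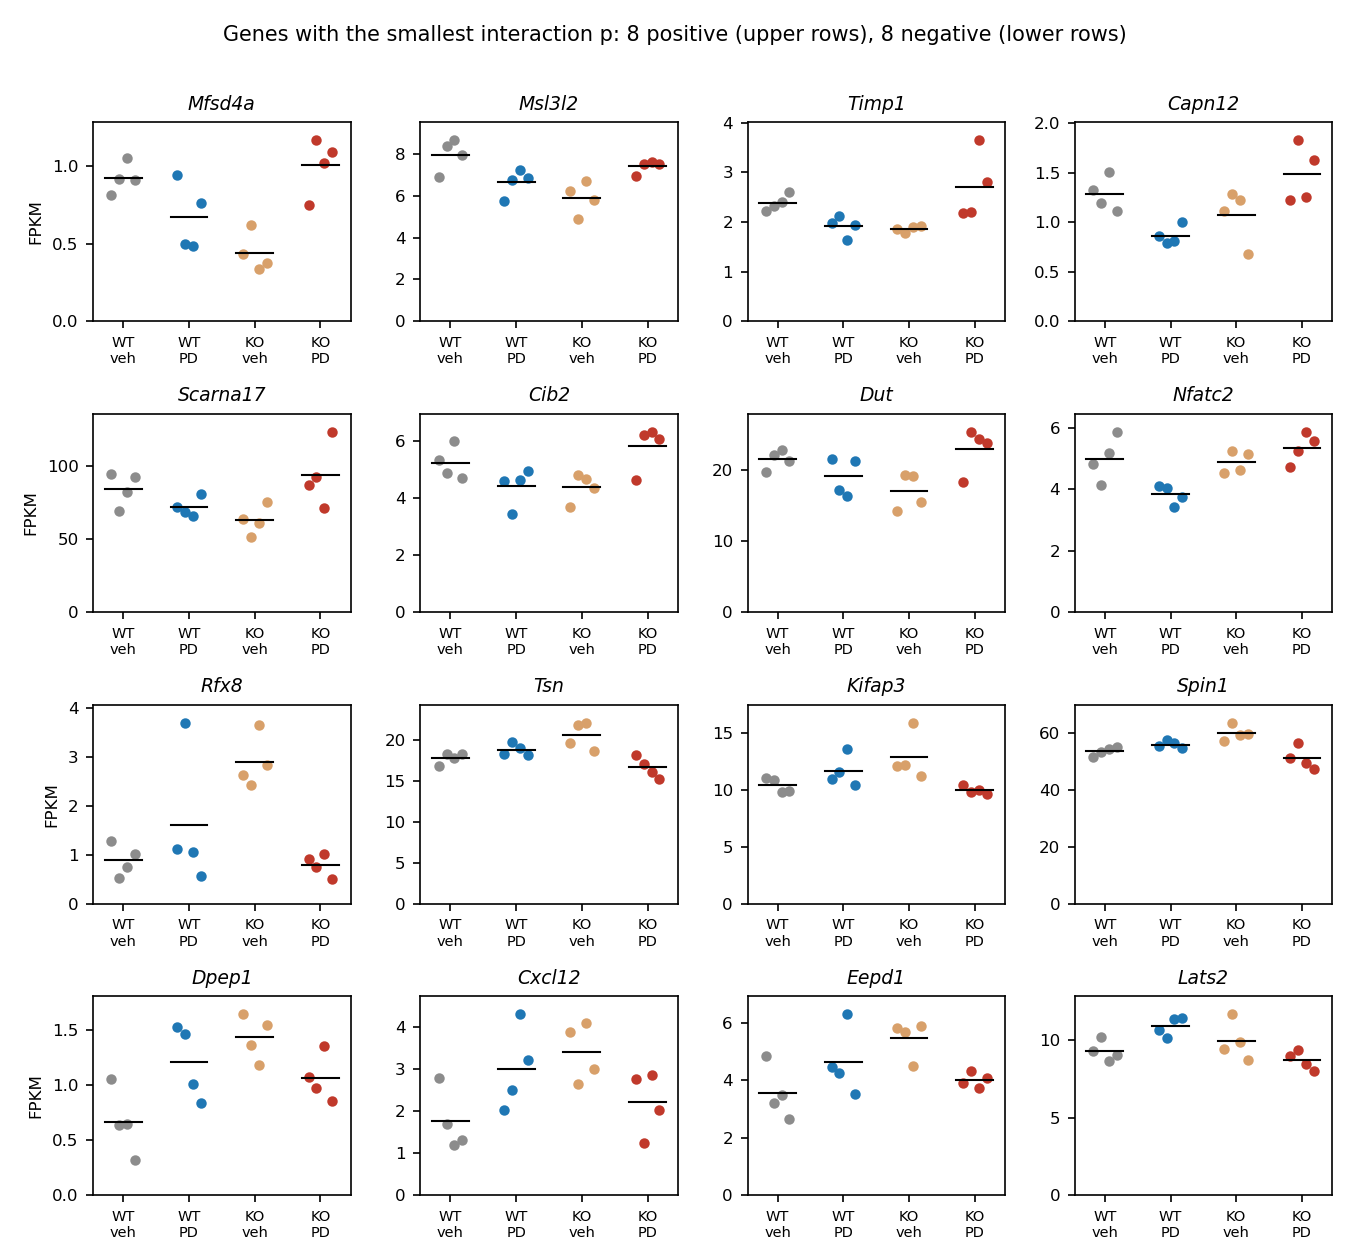
FPKM in each of the 16 libraries (points) and group means (bars) for the 16 genes with the smallest interaction p, the 8 positive ones in the upper rows. Points within a group stand in the order of the replicates. The positive genes form a V with the middle groups low, except Nfatc2, where KO_vehicle is about level with WT_vehicle. The negative genes form the reverse, and the Rfx8 panel shows WT_PD 2 far above the other WT_PD libraries.

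Timp1 was the 1 gene of 12907 (0.00775%) whose inhibitor libraries did not overlap its vehicle libraries in either genotype, with opposite directions. For 4 against 4 libraries without any difference, such lack of overlap has a probability of 0.0286 in each genotype. A single gene of this kind among 12907 is therefore no excess over chance. Timp1 encodes a secreted inhibitor of matrix metalloproteinases. Its level was 2.21, 2.31, 2.41 and 2.61 FPKM in WT_vehicle and 1.97, 2.11, 1.64 and 1.95 in WT_PD. In the knockout it was 1.86, 1.78, 1.89 and 1.92 FPKM with vehicle and 2.18, 2.20, 3.65 and 2.80 with inhibitor. Every WT_PD library lay below every WT_vehicle library, and every KO_PD library above every KO_vehicle library. The response was -0.26 in wild type and 0.42 in the knockout. The interaction was 0.67 (SE 0.18, 95% interval 0.29 to 1.06), with a limma adjusted p of 0.999. It was 0.34 within library numbers 440 to 447 and 1.01 within 448 to 455. At these levels the gene rests on an estimated 39 to 96 reads per library, so counting error is part of its spread.

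Timp1 lies on chromosome X, 20870166 to 20874735 on the plus strand of GRCm38, inside a stretch of Syn1 on the opposite strand with no shared exon. The 250 bases before its start (chrX:20869916-20870165, RefSeq, GRCm38.p6) are shown because it was the gene with full separation in both genotypes. None of the 4 motifs searched, described with the immediate early genes below, was found in this window on either strand, so no letters are in capitals.
Timp1: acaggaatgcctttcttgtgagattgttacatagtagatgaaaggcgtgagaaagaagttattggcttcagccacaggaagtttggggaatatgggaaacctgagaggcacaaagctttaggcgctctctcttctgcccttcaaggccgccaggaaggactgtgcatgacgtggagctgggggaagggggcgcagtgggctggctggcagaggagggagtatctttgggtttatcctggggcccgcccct

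Separation within a genotype was more common than in both. The inhibitor libraries did not overlap the vehicle libraries for 85 genes in wild type (0.659%, 56 higher and 29 lower) and for 220 in the knockout (1.70%, 71 higher, or 0.55%, and 149 lower). Both shares are below the probability of 0.0286 that holds for 4 against 4 libraries without any difference. Besides Timp1, 3 genes were separated in both genotypes, in the same direction: Dbr1, the RNA lariat debranching enzyme, was higher with inhibitor, and Nme5 and the stem cell gene Shisa6 were lower. These were named after their values were seen. Shisa6 was at 0.535 to 1.44 FPKM in WT_vehicle, 0.405 to 0.518 in WT_PD, 1.07 to 2.28 in KO_vehicle and 0.652 to 0.886 in KO_PD, so its level was low throughout.

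Mfsd4a, a membrane protein of the major facilitator family of transporters, had the smallest p of all genes. It was at 0.816, 0.917, 1.05 and 0.912 FPKM in WT_vehicle, 0.945, 0.497, 0.487 and 0.763 in WT_PD, 0.436, 0.619, 0.333 and 0.373 in KO_vehicle and 0.748, 1.17, 1.018 and 1.09 in KO_PD. All KO_PD libraries lay above all KO_vehicle libraries, while the wild-type groups overlapped. The interaction was 0.98 (SE 0.21) with the pseudocount of 0.5 and 1.49 with one of 0.1. Exons of Mfsd4a (chromosome 1, 132022806 to 132068062) overlap exons of Elk4 and Gm26892 on the opposite strand.

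Msl3l2, a homologue of the chromatin protein MSL3 that lies within Tbc1d32 on the opposite strand without shared exons, was at 6.89, 8.402, 8.66 and 7.99 FPKM in WT_vehicle and 5.76, 6.78, 7.23 and 6.84 in WT_PD. In the knockout it was at 6.23, 4.88, 6.73 and 5.79 FPKM with vehicle and 6.96, 7.52, 7.63 and 7.56 with inhibitor. The knockout groups were separated and the wild-type groups overlapped. The interaction was 0.56 (SE 0.14, 95% interval 0.26 to 0.86).

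Dut, the enzyme that keeps uracil out of newly made DNA, was among the more abundant positive genes. Its level was 19.8, 22.1, 22.9 and 21.3 FPKM in WT_vehicle, 21.6, 17.2, 16.4 and 21.3 in WT_PD, 14.2, 19.3, 19.2 and 15.6 in KO_vehicle and 18.4, 25.4, 24.4 and 23.9 in KO_PD. Both pairs of groups overlapped, the knockout pair through KO_PD 1 (interaction 0.60, SE 0.18). DNA replication genes as a list had a median of 0.08, with 19 of 27 positive and none called. Nfatc2, a transcription factor controlled by calcium and calcineurin, was at 4.13 to 5.87 FPKM in WT_vehicle and 3.42 to 4.11 in WT_PD, which did not overlap. In the knockout it was at 4.53 to 5.25 FPKM with vehicle and 4.73 to 5.88 with inhibitor, which did (interaction 0.45, SE 0.14). The interaction of Nfatc2 was 0.14 within library numbers 440 to 447 and 0.76 within 448 to 455.

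The remaining positive genes were Capn12, Scarna17 and Cib2. Capn12, a calpain protease, had a response of -0.38 in wild type, where the groups were separated, and 0.34 in the knockout (interaction 0.72, SE 0.21). Its exons overlap those of Actn4 and Gm44700 on the opposite strand. Scarna17 encodes a small nuclear RNA of 79 bases that guides modification of spliceosomal RNA (interaction 0.78, SE 0.22), and so short a gene is measured poorly in mRNA libraries. Cib2, a calcium- and integrin-binding protein whose exons overlap those of Sh2d7 on the opposite strand, had an interaction of 0.59 (SE 0.18).

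Rfx8 had the most negative interaction of the 16. It encodes a transcription factor of the RFX family and lies on chromosome 1, 39665301 to 39720997. Its level was 1.29, 0.520, 0.745 and 1.022 FPKM in WT_vehicle, 1.12, 3.70, 1.06 and 0.564 in WT_PD, 2.63, 2.44, 3.66 and 2.85 in KO_vehicle and 0.923, 0.757, 1.01 and 0.498 in KO_PD. All KO_vehicle libraries lay above all KO_PD libraries, and KO_PD lay at or just under the range of WT_vehicle. In wild type 1 inhibitor library, WT_PD 2, reached the knockout vehicle level. The response was 0.43 in wild type and -1.39 in the knockout, an interaction of -1.82 (SE 0.46, 95% interval -2.80 to -0.84, limma adjusted p = 0.999).

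Cxcl12, a chemokine that acts on germ cells through the receptor CXCR4, was at 2.80, 1.70, 1.196 and 1.32 FPKM in WT_vehicle, 2.02, 2.50, 4.31 and 3.23 in WT_PD, 3.89, 2.66, 4.10 and 3.01 in KO_vehicle and 2.77, 1.24, 2.85 and 2.03 in KO_PD. Neither pair of groups was separated (interaction -1.20, SE 0.37). It was -0.67 within library numbers 440 to 447 and -1.73 within 448 to 455. Lats2, a kinase of the Hippo pathway, was at 8.67 to 10.2 FPKM in WT_vehicle, 10.1 to 11.5 in WT_PD, 8.73 to 11.7 in KO_vehicle and 8.01 to 9.41 in KO_PD (interaction -0.39, SE 0.12). It shares exons with Gm49361 on the same strand, so its reads may be split.

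Tsn and Spin1 had small interactions with small errors. Tsn, which encodes the nucleic acid-binding protein translin, was at 16.9, 18.3, 17.9 and 18.4 FPKM in WT_vehicle, 18.3, 19.8, 19.0 and 18.3 in WT_PD, 19.7, 21.9, 22.1 and 18.7 in KO_vehicle and 18.3, 17.1, 16.1 and 15.3 in KO_PD. The knockout groups were separated and the wild-type groups were not (interaction -0.37, SE 0.10). Spin1, a reader of histone methylation first known from oocytes, was at 51.5 to 54.8 FPKM in WT_vehicle, 54.5 to 57.4 in WT_PD, 57.2 to 63.4 in KO_vehicle and 47.1 to 56.4 in KO_PD (interaction -0.29, SE 0.09). Kifap3, an accessory subunit of kinesin-2, was separated in the knockout as well (interaction -0.49, SE 0.14).

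Dpep1, a membrane dipeptidase, and Eepd1, an endonuclease of replication fork repair, complete the set. Dpep1 was at 0.315 to 1.05 FPKM in WT_vehicle, 0.838 to 1.52 in WT_PD, 1.19 to 1.64 in KO_vehicle and 0.857 to 1.36 in KO_PD (interaction -0.88, SE 0.27). For Eepd1 the knockout groups were separated, with a response of -0.40 against 0.35 in wild type (interaction -0.75, SE 0.23). When the mean level of the peritubular list of each library was added to the fit as a term, the interactions of the 16 genes were 0.791 to 1.08 times their values without it.

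Immediate early genes made up the list furthest to the positive side among the pathway lists. These are genes such as Fos and Egr1 that cells transcribe within minutes of ERK, p38 or stress signals, and that are also switched on by tissue dissociation. All 21 tested members had a positive interaction, from 0.19 (Ier5) to 1.19 (Ccn1), with a median of 0.74, against 47% positive and a median of -0.01 over all genes. None was called and none had an unadjusted limma p under 0.05. All 21 were lower with inhibitor in wild type (median -0.29) and 18 of 21 were higher in the knockout (median 0.39). Over all genes 54.0% were higher with inhibitor in wild type and 50.5% in the knockout. With vehicle the knockout lay below wild type in 19 of 21 (median -0.64), and with inhibitor in 8 of 21 (median 0.04). Over all 12907 genes it lay below in 6819 and 6947. The members vary together within a library, so these counts are not counts of independent observations.

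**Figure D3:**
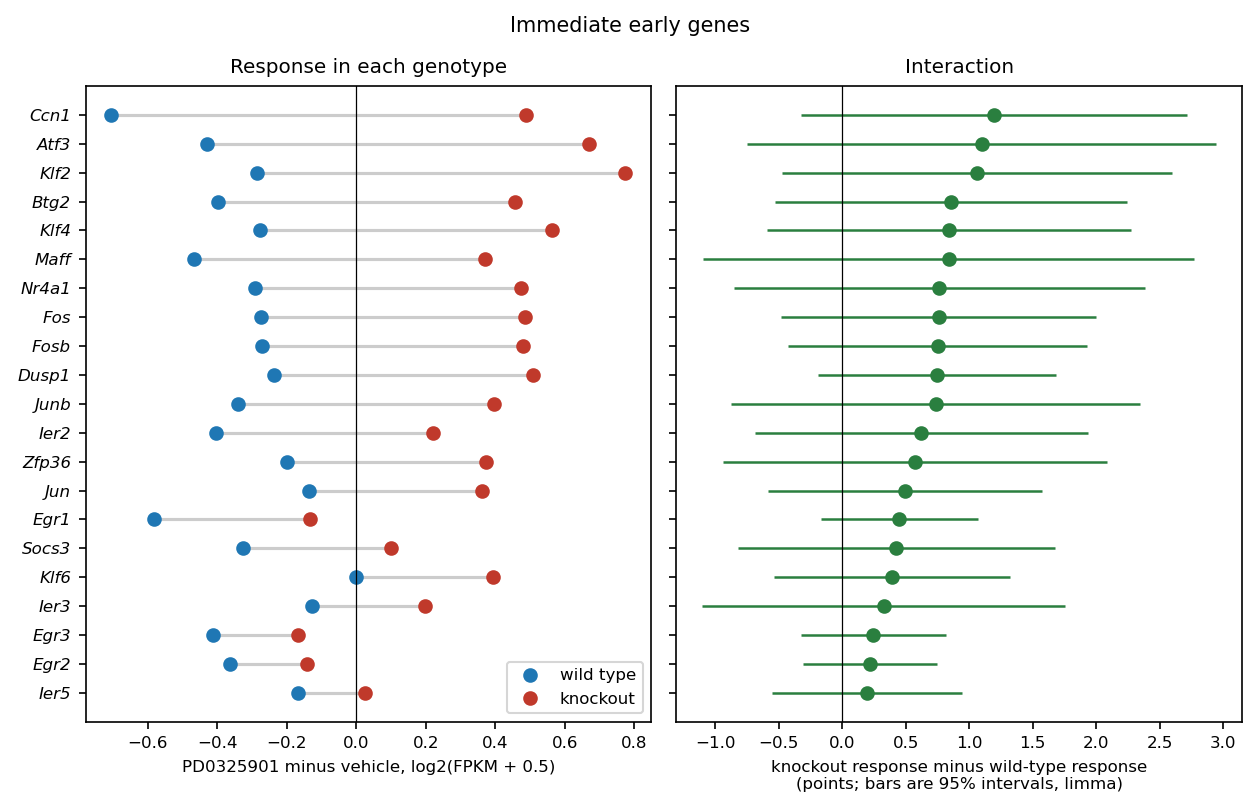
Left, log2 response to PD0325901 of the 21 immediate early genes in wild type and in the knockout. Right, the interaction with its 95% interval from limma. Every point on the right is above 0 and every interval includes 0.

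Single libraries show the spread behind these differences. Fos was at 450.3, 456, 576 and 335 FPKM in WT_vehicle, 243, 262, 874 and 334 in WT_PD, 232, 287, 177 and 571 in KO_vehicle and 427, 267, 396.5 and 574 in KO_PD. WT_PD 1 and 2 were low and WT_PD 3 was the highest of all 16, while KO_vehicle 4 stood with the inhibitor-treated knockout. The interaction of Fos was 0.76 (SE 0.58). Btg2, an antiproliferative gene, had the same high and low libraries in wild type, with 260.4, 319.8, 374 and 192 FPKM in WT_vehicle and 131, 109, 459 and 303 in WT_PD. In the knockout Btg2 was at 97.5, 129, 76.1 and 310.0 FPKM with vehicle and 185, 154, 171 and 218.7 with inhibitor. Egr1, a zinc finger factor induced by ERK through ETS and SRF sites, was the member separated in wild type. It was at 181, 140.2, 179.9 and 121 FPKM in WT_vehicle and 97.9, 117, 101 and 94.1 in WT_PD, and at 81.6, 134, 95.2 and 173 in KO_vehicle and 105, 87.2, 109 and 124 in KO_PD. Its response was -0.58 in wild type, where 29 of 12907 genes were separated downward (0.225%), and -0.13 in the knockout (interaction 0.45, SE 0.29). That share is below what chance gives for 4 against 4 libraries.

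The list's interaction was not present in every set of libraries. Within library numbers 440 to 447 its median was 1.23 with 21 of 21 positive, and within 448 to 455 it was -0.03 with 9 of 21 positive. Of all genes tested, 52.4% were positive within 440 to 447 and 41.8% within 448 to 455. Egr1 differed less between these sets than Fos did, with 0.44 and 0.46 against 1.23 and 0.29. The list mean also followed the peritubular mean over the libraries, as the plot of the library means shows. With the peritubular mean as a term the immediate early median was 0.16 with 15 of 21 positive, and Egr1 was 0.42. Of all genes tested, 39.6% were positive with that term. The immediate early median was 0.41 without WT_PD 1 and 1.05 without KO_vehicle 4, the extremes over single libraries left out.

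**Figure D4:**
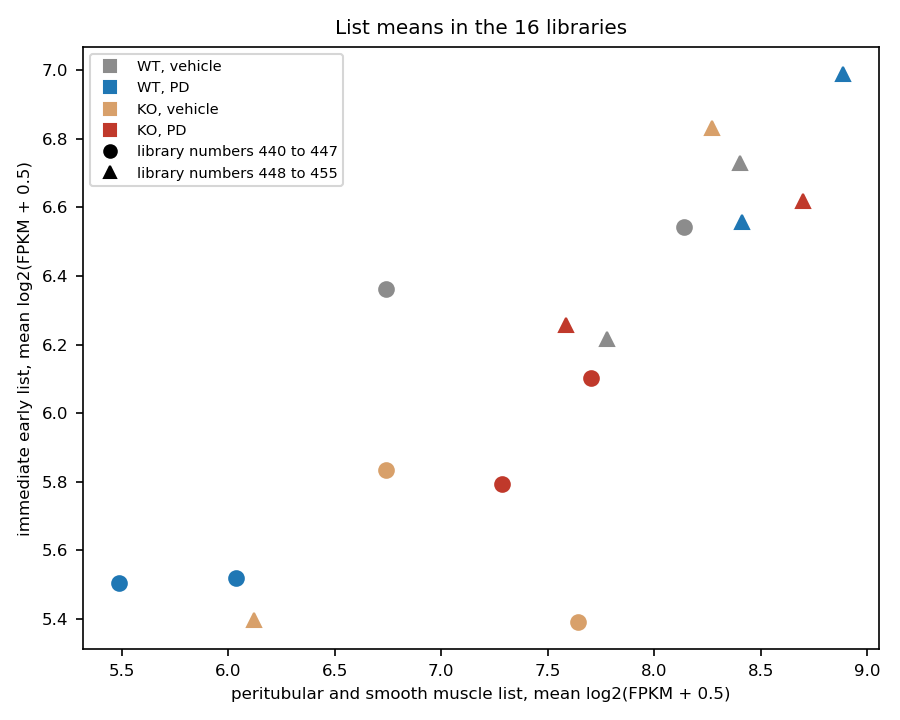
Mean log2(FPKM + 0.5) of the 21 immediate early genes against that of the 10 peritubular and smooth muscle markers, 1 point per library, with circles for library numbers 440 to 447 and triangles for 448 to 455. WT_PD 1 and 2 are at the lower left and WT_PD 3 at the upper right.

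Promoters of these genes were searched for 4 motifs on both strands, in the 250 bases before each RefSeq start (GRCm38.p6). The motifs were an ETS site (CCGGAAGT), a cyclic AMP response element or CRE (TGACGTCA), an AP-1 site (TGANTCA) and a CArG box, the site of SRF, in 1 fixed sequence. The letters of no motif contain another's. Of the 21 genes, 18 were searched, with 24 promoters, and Egr1, Egr3 and Ier2 were not. The CRE was in 3 genes (16.7%) and 3 of 24 promoters (12.5%), against 1.55% of all 32817 promoters of that length. The other motifs were in 0 of the 24, where 2.88%, 6.75% and 0.0609% of all promoters held them. Other forms of the CArG box were not searched, so its count does not show that SRF sites are absent. The other motifs were also searched only as written and only in this window, so near forms were not counted. Of the 16 genes with the smallest p, 15 were searched, and none held a motif. A match says only that these letters stand there. The CRE windows follow on the gene's own strand, with the CRE in capitals, because these were the motif matches among the immediate early genes. They lie at chr1:134079288-134079347 (minus strand, CRE 166 bases before the start) for Btg2 and chr17:26508582-26508641 (minus strand, 143 bases) for Dusp1. For Maff, which has 3 starts, the window is chr15:79347465-79347519 (plus strand). Its CRE is 29 bases before 1 of these starts and lies after another.
Btg2: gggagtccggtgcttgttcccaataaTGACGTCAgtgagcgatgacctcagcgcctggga
Dusp1: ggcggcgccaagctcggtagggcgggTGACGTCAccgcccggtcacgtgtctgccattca
Maff: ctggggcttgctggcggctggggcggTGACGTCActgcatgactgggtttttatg

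All 21 tested members of the list had a positive interaction, so direction could not set the genes with a CRE apart. Btg2 had an interaction of 0.85 (SE 0.65), and Maff, a small MAF transcription factor, one of 0.84 (SE 0.90). Dusp1, a phosphatase of ERK, p38 and JNK, had one of 0.75 (SE 0.44). Dusp1 was at 79.7, 86.0, 108 and 68.2 FPKM in WT_vehicle, 49.3, 60.9, 119.6 and 72.2 in WT_PD, 49.6, 46.2, 39.6 and 107 in KO_vehicle and 97.004, 57.8, 75.2 and 94.9 in KO_PD. WT_PD 3 and KO_vehicle 4 were again the high libraries of their groups.

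Markers of other cell types had interactions too, none of them called, and in sorted bulk samples fewer cells of a type and less RNA per cell cannot be told apart. All 10 peritubular and smooth muscle markers had a positive interaction (median 1.15, range 0.80 to 1.95), lower with inhibitor in wild type (median -0.50) and higher in the knockout (median 0.67). None of the 10 was at 0 in every library. Their summed level ran from 2608 to 8096 FPKM in WT_vehicle, 1222 to 12458 in WT_PD, 1441 to 7433 in KO_vehicle and 3509 to 10187 in KO_PD, so all groups overlapped. Acta2 had an interaction of 1.27 with an SE of 1.09. The list's median was 1.90 within library numbers 440 to 447 and 0.46 within 448 to 455. Without WT_PD 2 it was 0.66, and Acta2 was 0.64. Without WT_PD 3 the interaction of Acta2 was 1.91, and of Fos 1.17. The part of these cells in the immediate early difference was not tested beyond the values above.

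The 7 endothelial markers tested went the other way, with 7 of 7 negative (median -0.31). In the knockout all 7 were lower with inhibitor (median -0.36), and in wild type 3 of 7 were. Emcn, an endothelial sialomucin, had an interaction of -1.19 (SE 0.54), the 1 member with an unadjusted limma p under 0.05. Cdh5, vascular cadherin, was at 1.88, 2.92, 6.62 and 4.0 FPKM in KO_vehicle and 2.17, 1.86, 2.29 and 2.54 in KO_PD, with KO_vehicle 3 the highest. Without that library 2 of 7 members were positive and the median was -0.30. The summed level of 11 measured markers was 31.3 to 39.2 FPKM in WT_vehicle, 32.9 to 43.9 in WT_PD, 36.5 to 51.7 in KO_vehicle and 28.1 to 40.0 in KO_PD.

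Matrix fibroblast markers were negative in 6 of 7, with a median of -0.17. Col3a1, a fibrillar collagen, was at 3.96, 2.17, 1.58 and 1.71 FPKM in WT_vehicle, 3.27, 9.75, 4.24 and 3.44 in WT_PD, 11.9, 5.35, 2.57 and 6.01 in KO_vehicle and 5.76, 1.13, 5.54 and 3.47 in KO_PD (interaction -1.57, SE 0.68). WT_PD 2 and KO_vehicle 1 were the high libraries. Col3a1 was -2.26 within library numbers 440 to 447 and -0.88 within 448 to 455. The list's median was -0.57 without KO_vehicle 3, -0.09 without KO_vehicle 4 and -0.71 with the peritubular mean as a term. Sertoli markers had 2 of 5 positive and macrophage markers 1 of 3. Of the Leydig markers only 2 were tested, both positive, and the 2 erythrocyte genes measured did not pass the filter.

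Spermatid markers depended on 1 library. Over all libraries 4 of 11 were positive with a median of -0.41, and without KO_vehicle 3 all 11 were positive with a median of 1.01. With limma voom on the recovered reads 7 of 11 were positive. Meiotic markers had 5 of 12 positive and a median of -0.06.

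**Figure D5:**
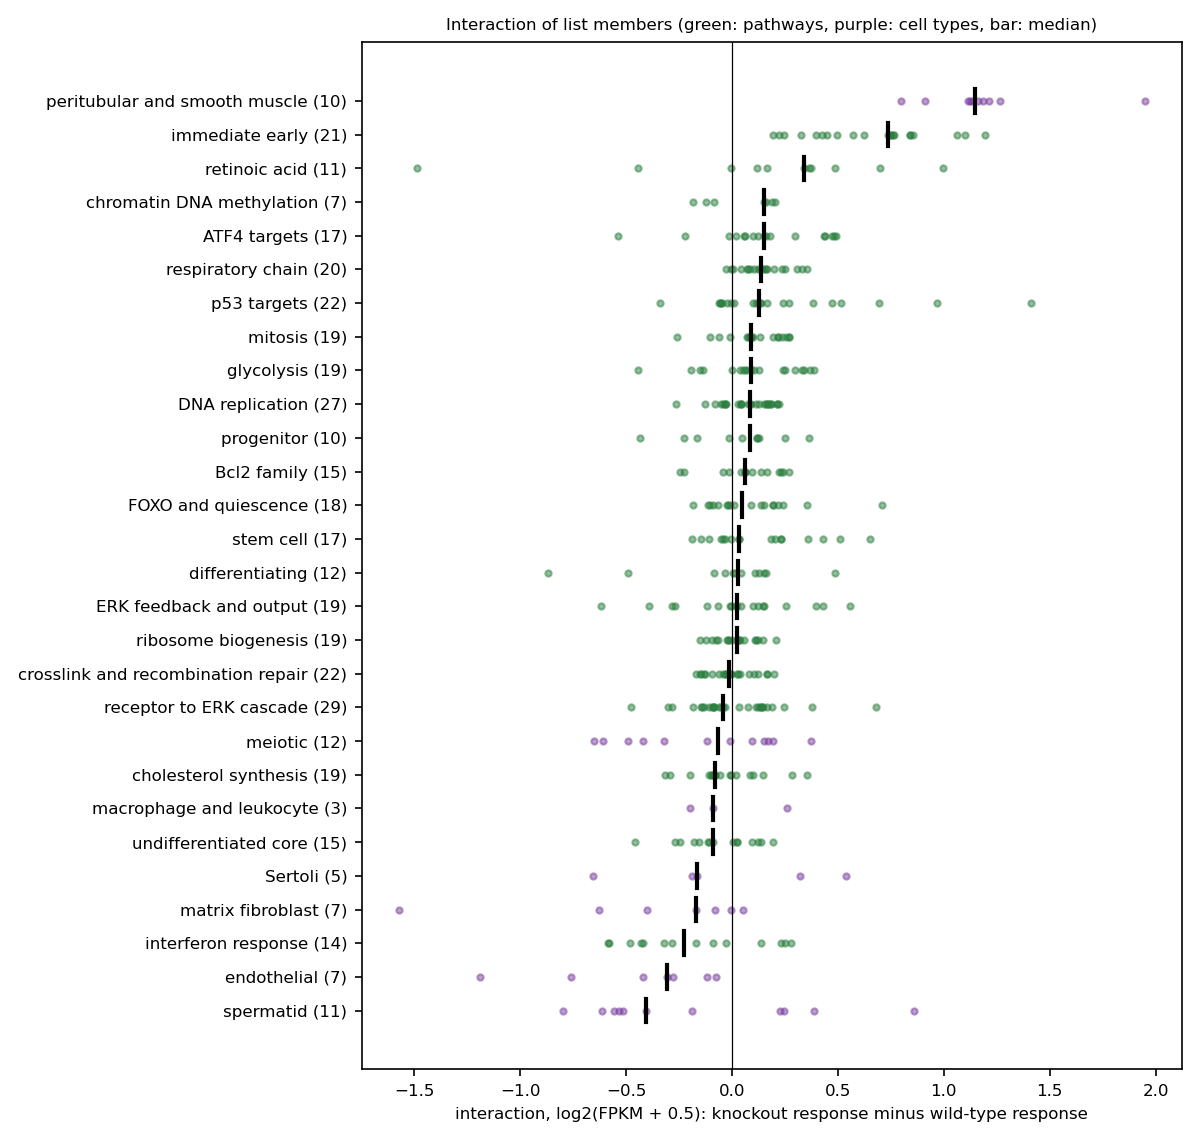
Interaction of each tested member (points) and median (bar) of 28 of the 30 lists, those with at least 3 tested members. Most pathway medians stand within 0.15 of 0, and the peritubular and immediate early lists stand to the right with every member above 0.

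Lists of spermatogonial states were read next, and none held a called gene. Of 17 stem cell genes, 16 were lower with inhibitor in wild type (median -0.24) and 14 in the knockout (median -0.16). Their interactions were 10 positive and 7 negative, with a median of 0.03. Within library numbers 440 to 447 it was 7 of 17 positive (52.4% of all genes tested), and within 448 to 455 it was 14 of 17 (41.8% of all genes). Lhx1, a transcription factor gene that responds to GDNF, was at 6.11, 6.38, 8.43 and 13.8 FPKM in WT_vehicle and 5.28, 6.17, 4.95 and 3.95 in WT_PD. It was at 8.12, 7.31, 11.7 and 11.7 FPKM in KO_vehicle and 8.91, 10.6, 6.50 and 8.60 in KO_PD. WT_vehicle 4 was the highest and WT_PD 4 the lowest library, and the interaction was 0.51 (SE 0.33). It was 0.27 without WT_vehicle 4 and 0.17 without both WT_vehicle 4 and WT_PD 4. Nanos2, an RNA-binding protein that keeps stem cells undifferentiated, had a response of -0.21 in wild type and 0.15 in the knockout (interaction 0.36, SE 0.23, 95% interval -0.13 to 0.85).

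Progenitor genes were higher with inhibitor in 8 of 10 in wild type (median 0.17) and in 6 of 10 in the knockout (median 0.22), with 6 of 10 interactions positive. Neurog3, a factor of progenitors on the way to differentiation, had responses of 0.44 and 0.57 (interaction 0.13, SE 0.40). Kit (-0.03, SE 0.33) and Zbtb16 (0.12, SE 0.16) gave interactions within their errors. In the undifferentiated core list 9 of 15 genes were higher with inhibitor in wild type (median 0.03) and 6 of 15 in the knockout (median -0.06), with 7 of 15 interactions positive. The differentiating list had 8 of 12 positive. Mki67, a proliferation marker, had an interaction of 0.27 (SE 0.21), and mitosis genes were positive in 15 of 19 with a median of 0.09.

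Retinoic acid drives spermatogonia towards differentiation, and its list had 8 of 11 interactions positive with a median of 0.34. Its 2 members with an unadjusted limma p under 0.05 differed in sign. Cyp26a1, which degrades retinoic acid and is induced by it, was at 2.82, 2.68, 3.03 and 2.80 FPKM in WT_vehicle, 2.27, 2.92, 2.001 and 2.59 in WT_PD, 1.26, 2.04, 2.62 and 2.19 in KO_vehicle and 2.29, 3.29, 3.40 and 3.31 in KO_PD. KO_PD 2 to 4 were above every KO_vehicle library, and KO_PD 1 was not (interaction 0.70, SE 0.23). Aldh1a1, which makes retinoic acid from retinal, was at 3.36, 3.05, 2.72 and 1.68 FPKM in WT_vehicle and 3.90, 7.24, 5.95 and 3.92 in WT_PD, which did not overlap. In the knockout it was at 5.25, 6.70, 1.95 and 4.25 FPKM with vehicle and 3.27, 1.21, 2.72 and 3.30 with inhibitor (interaction -1.49, SE 0.48). Stra8, a target of retinoic acid in cells entering differentiation, had an interaction of 0.49 (SE 0.37). With the peritubular mean as a term the list's median was 0.08 with 7 of 11 positive, and Cyp26a1 was 0.78. Without WT_PD 1 the median was 0.13.

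Targets of ATF4, the factor of the amino acid stress response, were positive in 14 of 17 with a median of 0.15. With the peritubular mean as a term 9 of 17 were (median 0.05), and within library numbers 448 to 455 it was 8 of 17 (median -0.01). Of all genes tested, 39.6% were positive with that term and 41.8% within 448 to 455. As in the retinoic acid list, the 2 members with an unadjusted limma p under 0.05 had opposite signs. Phgdh, the first enzyme of serine synthesis, was at 24.0, 23.0, 26.2 and 26.04 FPKM in WT_vehicle, 26.5, 21.6, 20.5 and 24.9 in WT_PD, 20.5, 25.2, 25.4 and 22.5 in KO_vehicle and 24.0, 34.7, 32.0 and 29.3 in KO_PD. KO_PD 2 to 4 were its highest libraries (interaction 0.43, SE 0.16). Asns, asparagine synthetase, was at 2.49, 2.54, 2.29 and 2.31 FPKM in WT_vehicle and 3.02, 4.01, 2.65 and 3.28 in WT_PD, which did not overlap, and at 2.92, 3.73, 3.13 and 1.87 in KO_vehicle and 2.85, 2.26, 2.24 and 2.44 in KO_PD (interaction -0.54, SE 0.22). Phgdh, Cyp26a1, Dut and Etv4 had in common that KO_PD 2 to 4 stood high and KO_PD 1 did not, a resemblance seen after the values were known. KO_PD 1 and KO_vehicle 1 are the libraries with SP numbers apart from the rest. Without both, the interaction was 0.47 for Phgdh, 0.65 for Cyp26a1, 0.62 for Dut and 0.60 for Etv4.

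Damage and energy lists had small medians, and no member was called. For p53 targets 15 of 22 were positive (median 0.13), and the cell cycle inhibitor Cdkn1a had 0.70 with an SE of 0.68, or 0.32 without WT_PD 2. The p53 median was 0.008 with the peritubular mean as a term and -0.03 within library numbers 448 to 455. Crosslink and recombination repair genes had 9 of 22 positive (median -0.01), and the Bcl2 family 11 of 15 (median 0.06). FOXO and quiescence genes had 10 of 18 (median 0.05) and ribosome biogenesis genes 11 of 19 (median 0.02). Respiratory chain genes were positive in 18 of 20, by a median of 0.14, but in 4 of 20 with the peritubular mean as a term and in 10 of 20 within library numbers 448 to 455. Glycolysis genes were positive in 15 of 19 (median 0.09), in 6 of 19 (median -0.04) with the peritubular mean as a term and in 8 of 19 within 448 to 455. Of all genes tested, 39.6% were positive with that term (median -0.05) and 41.8% within 448 to 455 (median -0.05). Positive interactions were also found for cholesterol synthesis genes in 6 of 19 (median -0.08) and DNA methylation genes in 4 of 7 (median 0.15). Interferon response genes were negative in 10 of 14, with a median of -0.23. Ifih1, a sensor of double-stranded RNA, stood at -0.58 (SE 0.30).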

How the data were processed

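The authors deposited 1 table of FPKM values for 16383 genes by symbol in 16 libraries of polyA RNA. The submitters' processing notes list edgeR 4.0.14, STAR 2.7.10a and FastQC, and the builds GRCm39 and mm10, each without a role. How reads were counted, and with which gene lengths and filters, is not given in the sources used here. Columns were matched to samples by the column names in the labels.

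Genes with at least 1 FPKM in at least 4 libraries (12907) were tested on log2(FPKM + 0.5) with limma (version 3.58.1, R version 4.3.3), using 1 mean per group, variances moderated with a trend, and Benjamini-Hochberg adjustment at 0.05. The interaction is (KO_PD minus KO_vehicle) minus (WT_PD minus WT_vehicle). The scripts were tested on simulated data with independent noise in each gene and planted interactions larger than nearly all estimates here. That checks the code and does not show which sizes would be found in these data. The 30 lists, the named genes and the members were chosen with earlier results of these data known. Named were 17 fixed genes, the 8 with the smallest interaction p in each direction, genes separated in opposite directions in both genotypes, and list members with an unadjusted p under 0.05. Adjusted p of all 39 was 0.999 (limma).

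FPKM times exon length (GENCODE M21, GRCm38) times the smallest fitting library size, 23359800 to 36613400, was within 0.1 of a whole number for 92.9% to 94.3% of values under 100 reads. Libraries thus held 22067300 to 37599200 reads in genes, and 1 FPKM stood for 23.4 to 36.6 reads per kilobase. A multiple of a size would fit as well, so depth is an estimate. Of the symbols 15791 (96.4%) matched GENCODE. Replicates correlated at r 0.881 to 0.986, and no replicate pair was identical. Alternatives covered the pseudocount, filter, scaling, weights, library sets and single libraries left out.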

Additional observations from a re-analysis of the deposited data

Results flagged for a closer look

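Timp1 was flagged because its inhibitor libraries lay apart from its vehicle libraries in both genotypes, in opposite directions. As given above, a single such gene among those tested is no excess over chance. All 4 WT_PD libraries lay below all 4 WT_vehicle libraries and all 4 KO_PD libraries above all 4 KO_vehicle libraries. The interaction was 0.67 (SE 0.18), and its limma adjusted p was 0.999.

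In 5 of 156 groups of 4 libraries of the named genes, 1 library lay farther from the other 3, relative to the group's range, than Dixon's 95% critical value allows. Chance alone flags about 1 in 20 such groups. Cdkn1a was at 18.5 FPKM in KO_vehicle 4, with 7.41 in the nearest library of that group. In KO_PD 1, Msl3l2 was at 6.96 FPKM (nearest 7.52), Cib2 at 4.65 (nearest 6.08) and Cyp26a1 at 2.29 (nearest 3.29). Eepd1 was at 4.49 FPKM in KO_vehicle 3 (nearest 5.68).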

How the results depend on the processing

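Under 33 alternatives, some of them chosen after seeing the data (4 sets of libraries or terms and the recovered reads), the interaction and both responses kept 0 called genes by limma. The number of unadjusted p-values under 0.05 for the interaction ran from 110 with a mean of at least 5 FPKM to 3054 with array quality weights, and the smallest limma adjusted p of the alternatives was 0.167 for the interaction, 0.130 for the response in wild type and 0.134 for that in the knockout. Of 1270 values of the 39 named genes, 1221 kept their direction and 49, in 10 genes, did not. Some alternatives could not change a direction, and their values are among those that kept it. These changed only the filter, the variance trend, or a term balanced over the groups (replicate number or library-number set). The 16 genes with the smallest p kept their direction throughout, but they were chosen on these libraries. With the peritubular mean as a term the interaction was -0.0325 for Spry4, 0.067 for Etv5, 0.012 for Dusp6, 0.023 for Gfra1, 0.047 for Ret, -0.030 for Cdkn1a and -0.021 for Acta2. Acta2 is itself a member of the peritubular list, so the term takes up its interaction by construction. Within library numbers 448 to 455 it was 0.14 for Etv5, 0.11 for Dusp6, 0.27 for Gfra1, 0.26 for Ret and -0.19 for Cdkn1a. Within 440 to 447 it was -0.46 for Neurog3, 0.41 for Kit and -0.090 for Zbtb16, and with array quality weights -0.30, 0.30 and -0.023. Etv5 was 0.00071 with median centring and 1.17e-05 with the spermatid mean as a term. Kit was 0.25 without WT_vehicle 4 and WT_PD 4, whose columns are written with more decimals. With single libraries left out, Etv5 ran from -0.094 to 0.10, Dusp6 from -0.19 to 0.053, Gfra1 from -0.15 to 0.074, Ret from -0.13 to 0.060, Neurog3 from -0.099 to 0.36 and Kit from -0.19 to 0.18. Apart from Acta2 with the peritubular term, the cause of these reversals was not tested. The replicate numbers did not pair the libraries: same-numbered libraries of different groups correlated at -0.53 to 0.73 (median -0.05), and 5 of 16 libraries correlated best with their own number. With the replicate number as a block 0 genes were called and 355 had an unadjusted p under 0.05. Genes near 1 FPKM rest on few reads (Rfx8 on 26 to 284 and Dpep1 on 24 to 116 per library).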

Other observations

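The widest interactions belonged to processed pseudogenes, which were picked after their values were seen. Their reads can be split with near-identical copies, so each value is uncertain. Gm15772 (chromosome 5, 3236431 to 3236868) stood at 2 levels that followed neither genotype nor treatment fully. It was at 130, 256, 139 and 121 FPKM in WT_vehicle, 3.18, 1.98, 0.991 and 233 in WT_PD, 232, 1.57, 1.95 and 1.91 in KO_vehicle and 106, 140, 131 and 164 in KO_PD (interaction 8.56, SE 2.18, limma adjusted p = 0.999). Vcp-rs (chromosome X, 104345829 to 104348234) stood at 3 levels, with 2.96 to 3.94 FPKM in all WT_vehicle libraries, 91.1, 44.7, 3.53 and 44.5 in WT_PD, 86.4, 3.66, 43.0 and 42.4 in KO_vehicle and 81.8, 3.54, 41.9 and 3.54 in KO_PD (interaction -3.75, SE 1.64). Gm9493 (interaction 3.03, SE 0.998) and Ndufs6b (3.05, SE 0.98) were the other genes beyond 3 log2 units. Single libraries within a group differed by up to the full span for Gm15772 and Vcp-rs.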
